A study of Mus musculus with 6 samples.

Results

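C-type lectin receptors are cell-surface proteins that recognise sugars and debris on microbes, particles and dying cells, and macrophages carry many of them. The 9 receptor genes described here were chosen by symbol as Mrc1, Clec10a, Mgl2, Clec7a, Clec4d, Clec4e, Clec4n, Clec12a and Clec5a, out of 40213 genes with a row in the deposited counts. All 9 had a row in all 6 files and all 9 passed the filter on low counts. RNA was sequenced from bone marrow-derived macrophages of C57BL/6 mice, grown from tibia and femur marrow for 4 days in macrophage colony-stimulating factor (25 ng/ml) with 10% serum. The 3 MNP samples then received polystyrene micro- and nanoplastics (50 µg, with no volume or particle size stated) for 24 h, and the 3 control samples, grown the same way, received no particles. No genetic change or other agent is given for either group. The labels do not say whether the replicates were separate animals or cultures, or whether marrow was pooled, and p-values then reflect variation among these 6 libraries, which may be technical alone.

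These receptors fall into classes by how they signal. Dectin-2 (Clec4n), its relative MCL (Clec4d) and Mincle (Clec4e) pair with the adaptor chain FcR gamma (Fcer1g), while MDL-1 (Clec5a) pairs with DAP12 (Tyrobp), and all of these engage the kinase SYK and, through it, the CARD9 complex. Dectin-1 (Clec7a), the receptor for fungal beta-glucan, reaches SYK through a motif in its own tail. CLEC12A carries an inhibitory motif, and the mannose receptor CD206 (Mrc1) and the galactose-type lectins MGL1 (Clec10a) and MGL2 (Mgl2) mainly take up sugar-bearing ligands. Mrc1, Clec10a and Mgl2 are widely used as markers of interleukin 4-driven, alternatively activated mouse macrophages.

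The activating receptor Clec4n rose 3.12-fold and Clec4d 1.53-fold in MNP samples, whereas the uptake receptors Clec10a, Mgl2 and Mrc1 fell 3.90-fold, 3.02-fold and 1.91-fold and Clec12a fell 1.24-fold. Clec7a, Clec4e and Clec5a did not pass the test. Of the 9 receptors, 6 passed at an adjusted p under 0.05 (edgeR's quasi-likelihood test), 2 with more and 4 with less RNA under MNP. Over all 12893 tested genes, 17.5% passed, 9.11% (1174 genes) higher and 8.35% (1076 genes) lower. With scaling by library totals alone, 757 genes were higher and 1941 lower, and the same 2 and 4 receptor counts were found. The same 6 receptors were those whose scaled values did not overlap between the groups, which held for 34.6% of tested genes. Of the 6, Clec4n, Clec10a and Mgl2 changed at least 2-fold, 3 of 9 receptors against 3.58% of tested genes. The receptors and the gene lists below were chosen with earlier results of these data known. Such shares therefore do not test whether a list changed more than other genes. The median log2 fold change of the 9 receptors was 0.01, against -0.01 over all tested genes, since their changes went in both directions.

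Upstream sequence is shown for the receptor genes that rose or fell and have an entry in the RefSeq promoter table (build GRCm38.p6), and for Clec4e, which lies beside Clec4d and did not pass. Each stretch is the 250 bases before the annotated start, read 5′ to 3′ along the gene's strand, and capitals mark matches, on either strand, to any of 5 motifs. These were the letters TTNCNNAA for C/EBP factors, GAGGAA for PU.1 and other ETS factors, TTC and GAA with any 4 bases between them for STAT6, TGACNNNGC for the NRF2 antioxidant response element and GGG and CC with any 5 bases between them for NF-kB. Matches could overlap, as the C/EBP and NF-kB letters do in Mgl2.
Clec4d, chr6:123261857-123262106, + strand: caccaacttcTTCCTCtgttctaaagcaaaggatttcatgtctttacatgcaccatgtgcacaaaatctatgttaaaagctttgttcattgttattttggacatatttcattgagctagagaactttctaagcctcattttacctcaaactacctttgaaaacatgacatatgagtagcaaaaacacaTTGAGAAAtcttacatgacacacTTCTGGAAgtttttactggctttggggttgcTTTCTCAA
Clec4e, chr6:123289872-123290121, - strand: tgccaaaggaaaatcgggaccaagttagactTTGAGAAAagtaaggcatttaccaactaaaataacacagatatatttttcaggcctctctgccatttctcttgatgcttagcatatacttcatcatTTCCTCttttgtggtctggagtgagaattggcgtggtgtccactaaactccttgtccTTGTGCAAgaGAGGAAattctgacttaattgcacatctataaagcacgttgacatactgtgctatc
Clec12a, chr6:129349994-129350243, + strand: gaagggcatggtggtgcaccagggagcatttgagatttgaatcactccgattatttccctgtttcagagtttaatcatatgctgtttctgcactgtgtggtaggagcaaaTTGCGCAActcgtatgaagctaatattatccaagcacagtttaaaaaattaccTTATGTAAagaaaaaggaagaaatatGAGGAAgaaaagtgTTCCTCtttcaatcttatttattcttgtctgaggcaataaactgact
Mrc1, chr2:14229164-14229413, + strand: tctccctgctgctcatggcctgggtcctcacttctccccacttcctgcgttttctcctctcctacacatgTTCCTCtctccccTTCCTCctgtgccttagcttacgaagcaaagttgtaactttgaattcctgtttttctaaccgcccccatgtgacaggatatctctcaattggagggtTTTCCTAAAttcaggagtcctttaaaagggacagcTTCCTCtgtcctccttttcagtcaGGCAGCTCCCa
Mgl2, chr11:70130107-70130356, + strand: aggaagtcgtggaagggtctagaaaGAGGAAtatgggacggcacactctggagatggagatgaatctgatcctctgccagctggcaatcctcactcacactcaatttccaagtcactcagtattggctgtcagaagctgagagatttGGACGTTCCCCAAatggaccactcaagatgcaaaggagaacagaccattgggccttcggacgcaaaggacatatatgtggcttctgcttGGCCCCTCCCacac

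Of the 9 receptors, 7 have an entry in that table, all but Clec10a and Clec4n. The PU.1 and ETS letters were found in all 7, whether the gene rose, fell or did not pass, against 23.3% of 32851 windows of the same length. The C/EBP letters were found in 6 of 7, against 36.8% of windows, with Clec7a the exception. The STAT6 letters were found in 2 of 7 (Clec5a and Clec7a, against 5.85% of windows), the NF-kB letters in 2 of 7 (Mrc1 and Mgl2, against 45.8%) and the NRF2 letters in 0 of 7 (against 10.2%). The receptors are counted as genes and the background as single windows of the whole promoter table, not limited to tested genes. These shares therefore do not test whether the letters are particular to the receptors. A match is a string of letters and not a binding site. Mrc1 (lower) and Clec4d (higher) both held the C/EBP and the ETS letters, and Clec4d was the only receptor that rose with a window to read.

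**Figure D1:**
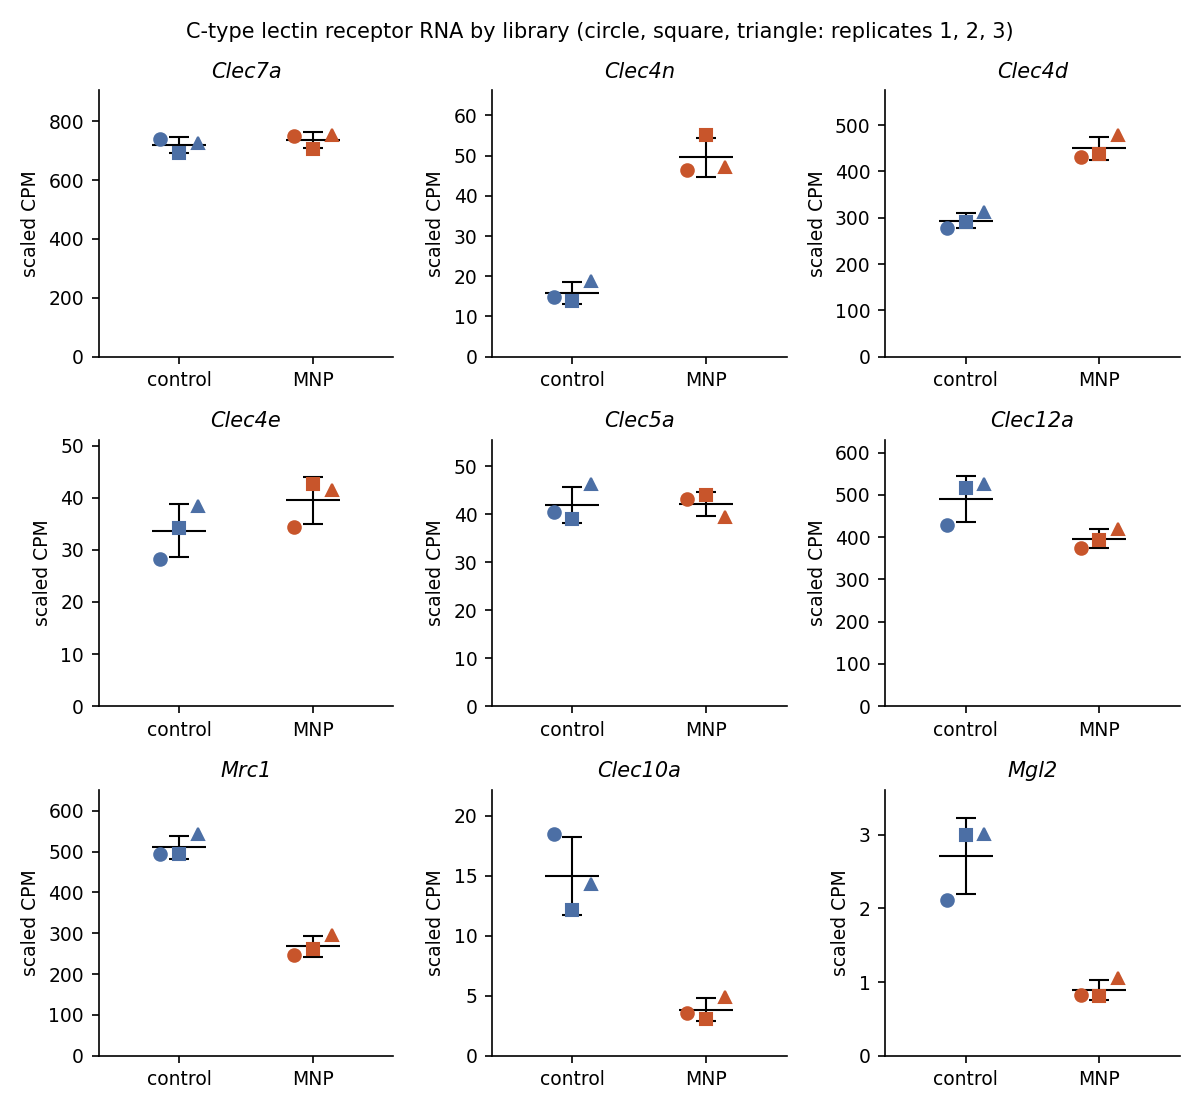
Scaled CPM (vertical axes, from 0) of the 9 receptor genes in the 3 control and 3 MNP libraries. Points are libraries and bars are the mean ± SD, and the 2 groups stand apart for Clec4n, Clec4d, Clec12a, Mrc1, Clec10a and Mgl2 but overlap for Clec7a, Clec4e and Clec5a.

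Among the activating receptors, Clec4n had the largest increase. Its level in CPM (counts per 1000000 counts of a library, after scaling by normalization factors) was 15.0, 13.8 and 18.9 in controls 1 to 3 and 46.3, 55.1 and 47.2 in MNP samples 1 to 3. The lowest MNP value was thus above the highest control value. The mean went from 15.9 ± 2.67 to 49.6 ± 4.85 CPM (SD, n = 3), a log2 fold change of 1.64 ± 0.12 (SE, edgeR adjusted p = 4.32e-07), and by the size of its change Clec4n ranked 245 of 12893 tested genes. Dectin-2, its product, binds high-mannose sugars such as fungal mannan.

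Clec4d, whose product helps bring Mincle to the cell surface, stood at 279, 291 and 312 CPM in controls and at 432, 438 and 479 CPM in MNP samples. All MNP values exceeded all control values, and the mean went from 294 ± 16.7 to 450 ± 25.5 CPM (log2 fold change 0.62 ± 0.06, edgeR adjusted p = 1.28e-05). Clec4e, which encodes Mincle, a receptor for mycobacterial cord factor and for the nuclear protein SAP130 of dying cells, had 28.3, 34.2 and 38.5 CPM in controls and 34.4, 42.6 and 41.4 CPM in MNP samples. These groups overlapped, and the log2 fold change of 0.23 ± 0.11 did not pass (edgeR adjusted p = 0.199), with a 95% interval from -0.02 to 0.47.

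Since MCL and Mincle act as partners, their counts were set against each other within each library, which does not depend on scaling. The log2 ratio of Clec4e to Clec4d counts was -3.30, -3.09 and -3.02 in controls and -3.65, -3.36 and -3.53 in MNP samples. It was lower in all 3 MNP samples, by 0.38 on average (-3.13 ± 0.15 to -3.51 ± 0.14, SD). The exact two-sided permutation p was 0.1, the smallest that this test can give with 3 against 3 samples, so it cannot reach 0.05 here. The same permutation test gave 0.2 without control 2, control 3, MNP sample 1 or MNP sample 3. Clec4d rose and Clec4e did not pass, so the ratio rests on the same counts and is not a separate result.

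Clec7a, for dectin-1, did not pass the test. It had 740, 691 and 726 CPM in controls and 749, 705 and 753 CPM in MNP samples, with overlapping groups (719 ± 25.5 and 736 ± 26.8 CPM, log2 fold change 0.03 ± 0.06, edgeR adjusted p = 0.735). The 95% interval of -0.09 to 0.15 on the log2 scale leaves room for changes of 0.942-fold to 1.11-fold. With scaling by library totals alone the sign of this value turned (-0.055). Clec5a, for the DAP12-coupled receptor MDL-1, had 40.5, 39.1 and 46.3 CPM in controls and 43.2, 44.0 and 39.4 CPM in MNP samples. Its log2 fold change was 0.01 ± 0.08 (edgeR adjusted p = 0.967, 95% interval -0.18 to 0.19), and its sign depended on the library left out.

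Clec12a encodes an inhibitory receptor that binds uric acid crystals released by dead cells. It had 429, 517 and 525 CPM in controls and 375, 393 and 420 CPM in MNP samples. The groups did not overlap, but control 1 lay close to the MNP samples, and the mean went from 490 ± 53.5 to 396 ± 22.7 CPM (log2 fold change -0.31 ± 0.08, edgeR adjusted p = 0.0138). The call was lost without control 2 (log2 -0.26, adjusted p = 0.0748), control 3 (-0.25, 0.0582), MNP sample 1 (-0.26, 0.0712) or MNP sample 2 (-0.30, 0.0690) in edgeR.

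The uptake receptors fell further than Clec12a. Mrc1, the mannose receptor, had 495, 494 and 544 CPM in controls and 246, 262 and 295 CPM in MNP samples, so that the highest MNP value was well below the lowest control value. The mean went from 511 ± 28.5 to 268 ± 25.1 CPM (log2 fold change -0.93 ± 0.07, edgeR adjusted p = 8.89e-07). In the GENCODE M21 annotation the microRNA gene Mir511 lies within Mrc1 on the same strand, and none of the other 8 receptor genes overlaps another annotated gene.

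Clec10a and Mgl2 are neighbouring, closely related genes for the 2 mouse galactose-type lectins. Clec10a had 18.5, 12.1 and 14.3 CPM in controls and 3.53, 3.07 and 4.92 CPM in MNP samples, with no overlap (15.0 ± 3.24 to 3.84 ± 0.966 CPM, log2 fold change -1.96 ± 0.20, edgeR adjusted p = 1.14e-05). By the size of its change it ranked 147 of 12893 tested genes, the highest rank of the 9 receptors. Mgl2 was the weakest of the 9, with 44, 69 and 71 counts in controls and 17, 18 and 22 in MNP samples. Those counts corresponded to 2.11, 3.00 and 3.01 CPM and to 0.822, 0.812 and 1.05 CPM, again with no overlap (log2 fold change -1.59 ± 0.33, edgeR adjusted p = 0.00396).

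Reads can be split between these near copies. Of all 50-base words in the annotated Clec10a transcripts, 9.02% also occur in transcripts of another gene, and for Mgl2 the share is 13.1%, with 270 words shared between both genes. How the authors' counting divided such reads is not given in the sources used here, so the separate counts of both genes are uncertain, most of all those of Mgl2, which had fewer counts than Clec10a in every library, whereas Mrc1, Clec7a, Clec4d, Clec4e and Clec5a shared 0 words with another gene. The log2 ratio of Clec10a to Mgl2 counts was 3.12, 2.01 and 2.24 in controls and 2.07, 1.89 and 2.20 in MNP samples. The groups overlapped (difference -0.40, exact two-sided permutation p = 0.4), and the difference was -0.07 without control 1. A drop in bulk RNA of this kind cannot tell fewer cells that carry a transcript from less of it per cell.

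The balance of Clec7a to Mrc1 was higher in each MNP sample. Clec7a did not pass and Mrc1 fell, so this ratio restates the fall of Mrc1 from the same counts and is not a separate result. The log2 ratio of Clec7a to Mrc1 counts was 0.58, 0.48 and 0.42 in controls and 1.61, 1.43 and 1.35 in MNP samples, a difference of 0.97 with no overlap (exact two-sided permutation p = 0.1, the smallest possible here).

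**Figure D2:**
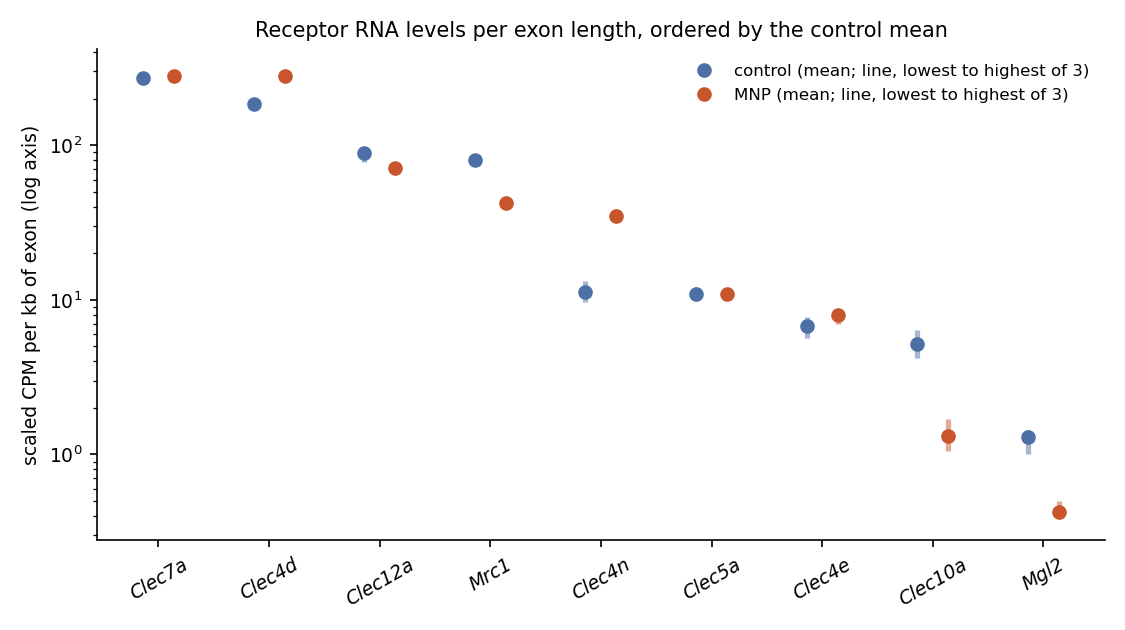
Mean scaled CPM per kilobase of annotated exon (log axis) for the 9 receptors in control and MNP samples, with lines from the lowest to the highest of 3 libraries. In MNP samples Clec4d stands level with Clec7a, and Clec4n stands close to Mrc1.

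Levels of different genes were compared per kilobase of annotated exon (GENCODE M21, all isoforms merged), which makes the order approximate where isoforms differ. In controls Clec7a led with 273 ± 9.68 CPM per kb, followed by Clec4d with 184 ± 10.5. Clec12a (88.7 ± 9.68 CPM per kb) and Mrc1 (80.2 ± 4.48) overlapped in range, as did Clec4n (11.2 ± 1.88) and Clec5a (10.9 ± 0.991), and Clec4e (6.78 ± 1.03) and Clec10a (5.17 ± 1.12), and Mgl2 was lowest at 1.29 ± 0.247. In MNP samples Clec4d (281 ± 16.0 CPM per kb) and Clec7a (279 ± 10.2) overlapped at the top. Clec12a followed with 71.7 ± 4.11 CPM per kb, and Mrc1 (42.0 ± 3.94) and Clec4n (34.9 ± 3.41) then overlapped.

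The make-up of the family shifted accordingly. Of the summed CPM per kb of the 9 receptors, Clec4d took 27.0% to 28.3% in controls and 37.9% to 39.3% in MNP samples. Clec4n took 1.50% to 1.93% and then 4.37% to 5.44%. Mrc1 went the other way, from 12.0% to 12.4% in controls down to 5.41% to 6.08% in MNP samples, and Clec12a from 12.0% to 14.5% down to 9.52% to 9.98%. The sum itself was 660 ± 25.5 CPM per kb in controls and 730 ± 27.7 in MNP samples. Clec7a took 39.9% to 43.6% in controls and 37.4% to 39.8% in MNP samples. Its own level was 273 ± 9.68 CPM per kb in controls and 279 ± 10.2 in MNP samples. In the scaling used here, the lower share of Clec7a thus goes with the larger sum and not with a lower level. With library totals alone the log2 fold change of Clec7a was -0.055, and the change of the sum was not tested.

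**Figure D3:**
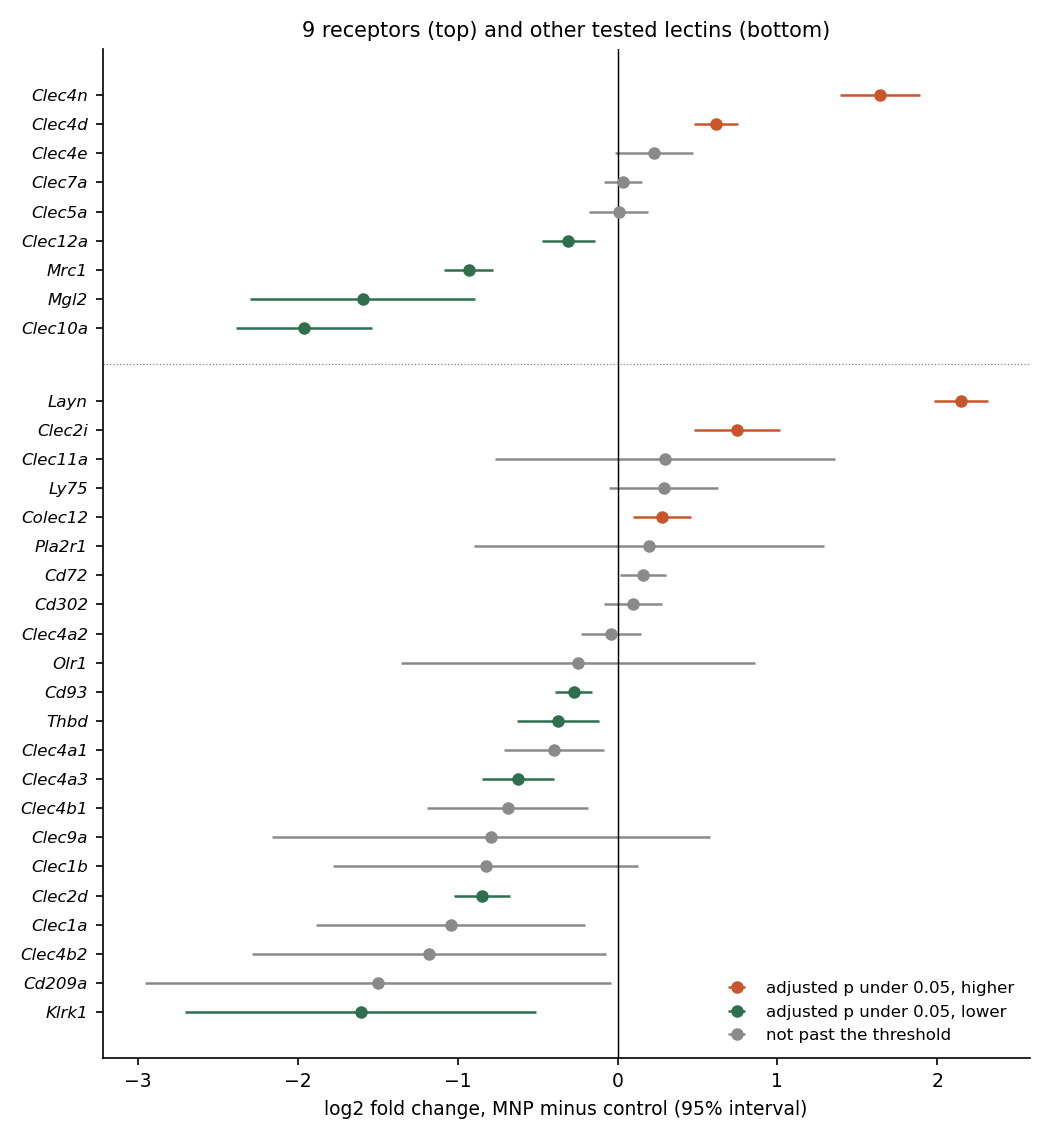
Log2 fold change, MNP minus control, with 95% intervals for the 9 receptors (above the dotted line) and 22 of the 23 tested members of a list of other lectin receptors (below it). Clec4n and Layn have the largest increases, and intervals are wide for genes of few counts such as Cd209a and Klrk1.

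Of 45 other C-type lectin and lectin-like receptor genes listed, 23 were tested, and 3 of these rose and 6 fell (2 and 8 with library totals alone). The median log2 fold change of the 23 was -0.37, against -0.01 over all tested genes, of which 17.5% passed. Layn, for layilin, a hyaluronan receptor, averaged 26.3 ± 1.50 CPM in controls and 117 ± 8.74 CPM in MNP samples, a 4.43-fold rise (log2 2.15 ± 0.08, edgeR adjusted p = 1.44e-09) and more than any of the 9 receptors. Clec2i rose 1.68-fold, and the scavenger lectin Colec12 rose 1.21-fold. The Colec12 call was lost with library totals alone (log2 0.19, adjusted p = 0.116) and without control 1 (0.21, 0.0753), control 2 (0.31, 0.0686), MNP sample 2 (0.30, 0.0771) or MNP sample 3 (0.24, 0.139) in edgeR.

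Among the other lectins that fell, Clec2d, a ligand of natural killer cell receptors, went from 136 ± 7.22 to 75.6 ± 8.78 CPM (1.80-fold lower, edgeR adjusted p = 6.40e-06). Clec4a3, of the DCIR group that lies beside Clec4n, fell 1.54-fold from 46.8 ± 5.65 to 30.4 ± 3.44 CPM. Cd93, which has a lectin-like domain, fell 1.21-fold from 1100 ± 45.1 to 909 ± 6.39 CPM. Thbd and Klrk1 also fell. Each lost its call in 8 other settings, Klrk1 when any library was left out (edgeR adjusted p from 0.0701 to 0.188) and Thbd when any but control 2 was left out (0.0968 to 0.188). Of the other 22 listed genes, which had too few counts to test, 3 had 0 counts in all 6 libraries.

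**Figure D4:**
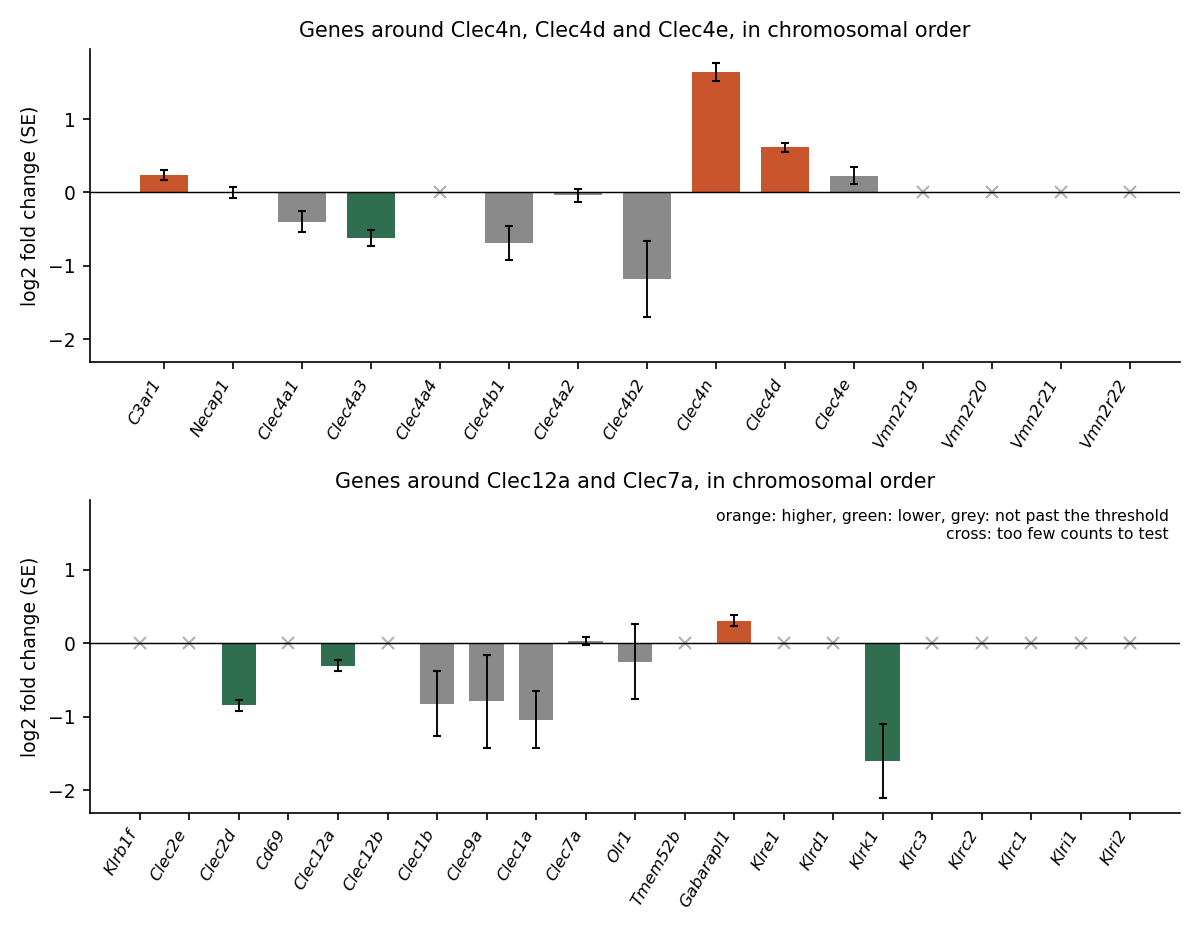
Log2 fold change (bars, SE) of protein-coding genes in chromosomal order around 2 groups of receptor genes on chromosome 6. Clec4n, Clec4d and Clec4e, which lie together, have positive values, and the Clec4a and Clec4b genes on 1 side of them have values at or below 0.

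Of the 9 receptors, 6 lie on chromosome 6, of which 5 stand in the gene clusters named after dectin-2 and dectin-1 and Clec5a lies apart from both. In the dectin-2 cluster, Clec4n, Clec4d and Clec4e are adjacent, with log2 fold changes of 1.64, 0.62 and 0.23. The next tested lectin genes on the Clec4n side had log2 fold changes of -1.18 ± 0.51 (Clec4b2), -0.04 ± 0.09 (Clec4a2), -0.69 ± 0.23 (Clec4b1), -0.62 ± 0.11 (Clec4a3) and -0.40 ± 0.15 (Clec4a1). Of those, Clec4a3 passed, and Clec4a1 and Clec4b1 passed in 5 other settings each, DESeq2 included.

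In the dectin-1 cluster, Clec12a (log2 -0.31) and Clec7a (0.03) lie with Clec1b, Clec9a, Clec1a and Olr1. Those 4 genes had means of 0.694 to 2.48 CPM in controls and none passed, except Clec1b once MNP sample 1 was left out (log2 -1.50, edgeR adjusted p = 0.0324). Clec2d, on the Clec12a side, fell as described. No test of the difference between the clusters was made.

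**Figure D5:**
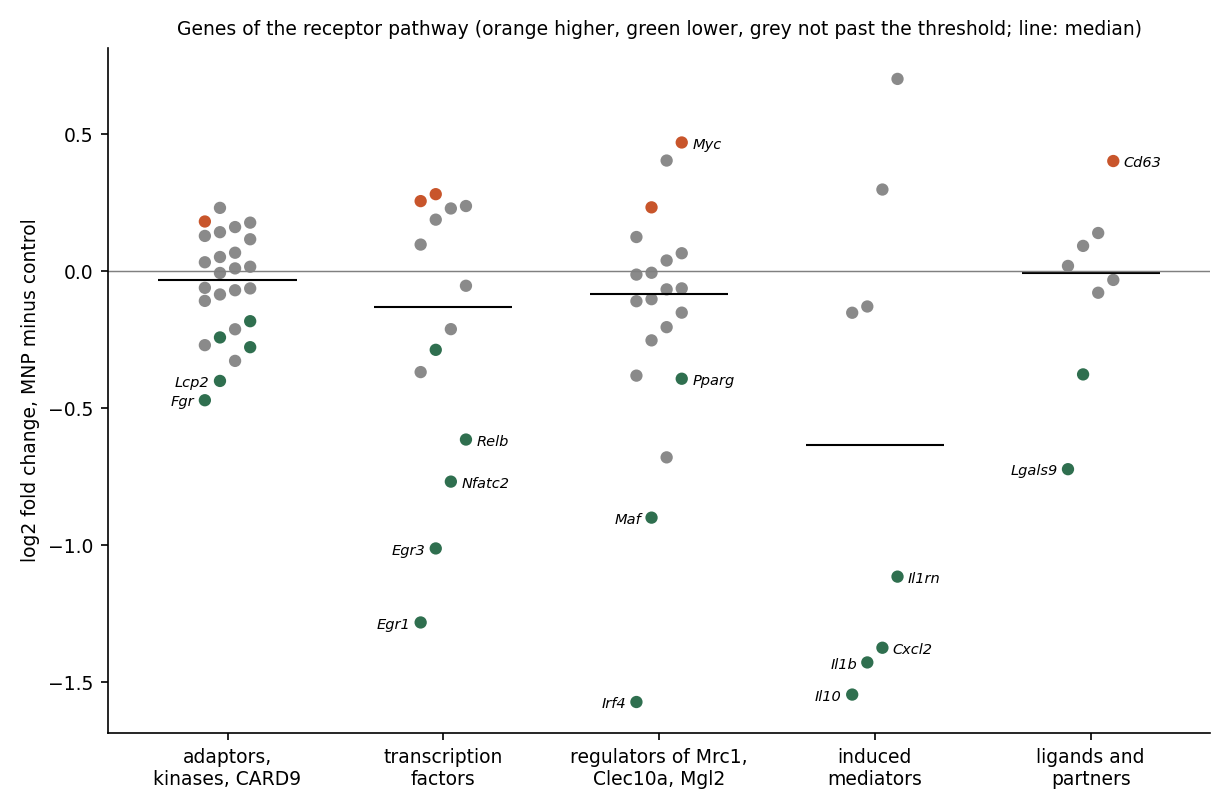
Log2 fold change, MNP minus control, of the tested genes in 5 lists around the receptors, less 2 signalling genes that are not shown, with the median of each full list as a line. The lowest signalling gene shown is Fgr, at -0.47, and Irf4, Il10, Il1b, Cxcl2, Egr1 and Il1rn are among the lowest points, each more than 2-fold lower.

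In the signalling chain below the receptors, of 28 genes for adaptors, kinases, phosphatases and the CARD9 complex, all tested, 2 rose and 6 fell (median log2 fold change -0.03), and 1 rose and 10 fell with library totals alone. These 8 of 28 stand beside the 17.5% of all tested genes that passed. The adaptor chains did not pass, with Fcer1g at 223 ± 23.9 and 246 ± 20.1 CPM (log2 0.14 ± 0.08, edgeR adjusted p = 0.260) and Tyrobp at 477 ± 30.5 and 487 ± 18.0 CPM (log2 0.03 ± 0.06, edgeR adjusted p = 0.764). The kinase Syk fell 1.18-fold from 397 ± 23.7 to 336 ± 5.74 CPM (edgeR adjusted p = 0.0107, and 0.0620 without MNP sample 2). Card9 stood at 18.1 ± 0.504 and 15.0 ± 1.95 CPM and did not pass (log2 -0.27 ± 0.11, edgeR adjusted p = 0.117, and 0.0321 with library totals alone).

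The SRC-family kinase Lyn, which phosphorylates the receptor tails, fell 1.21-fold. Lcp2, for the adaptor SLP-76, fell 1.32-fold. The phospholipase Plcg2 rose 1.13-fold. The Plcg2 call was lost with library totals alone (log2 0.09, adjusted p = 0.219) and without control 2 (adjusted p = 0.0843), MNP sample 1 (0.0944), MNP sample 2 (0.0530) or MNP sample 3 (0.0835) in edgeR. The list's count was 5 without control 2 or any single MNP sample.

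Of 14 transcription factors that receptor signalling can engage, 2 rose and 5 fell (median -0.13), and 0 rose and 6 fell with library totals alone. These 7 of 14 stand beside the 17.5% of all tested genes that passed. Nfatc2 fell 1.70-fold from 22.2 ± 2.91 to 13.0 ± 1.08 CPM, the NF-kB subunits Relb and Nfkb1 fell 1.53-fold and 1.22-fold, and the immediate early gene Egr1 fell 2.43-fold from 5.36 ± 1.70 to 2.20 ± 0.516 CPM. Egr3 was the other that fell, a call lost without control 3 (adjusted p = 0.0561) or MNP sample 2 (0.0599) in edgeR. Irf5 rose 1.19-fold and Nfatc3 1.22-fold. Both lost their calls with library totals alone (adjusted p = 0.0638 and 0.0784) and without control 2 (0.0575 and 0.0580) or MNP sample 3 (0.0584 and 0.0650), and Nfatc3 also without MNP sample 2 (0.0955), in edgeR.

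Among 20 cytokine receptors and factors linked to the control of Mrc1, Clec10a and Mgl2, 2 rose and 3 fell (median -0.08), and 1 rose and 6 fell with library totals alone. These 5 of 20 stand close to the 17.5% of all tested genes that passed. Irf4, a factor of interleukin 4-driven activation, averaged 8.37 ± 1.39 CPM in controls and 2.81 ± 0.807 CPM in MNP samples, and fell 2.97-fold (log2 -1.57 ± 0.22, edgeR adjusted p = 0.000246). Maf fell 1.86-fold from 249 ± 24.9 to 134 ± 10.4 CPM, and the lipid-sensing receptor Pparg fell 1.31-fold from 68.9 ± 0.869 to 52.5 ± 4.54 CPM. The interleukin 4 receptor chain Il4ra (37.8 ± 2.43 and 39.6 ± 2.04 CPM) and its signal transducer Stat6 (196 ± 16.9 and 201 ± 6.08 CPM) did not pass (edgeR adjusted p = 0.633 and 0.740). Myc rose 1.38-fold and Csf2ra, a chain of the receptor for granulocyte-macrophage colony-stimulating factor, 1.18-fold. The Csf2ra call was lost with library totals alone (adjusted p = 0.0975) and without control 2 (0.0569), MNP sample 2 (0.0544) or MNP sample 3 (0.0699) in edgeR.

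Of 16 cytokines and mediators that receptor signalling can induce, 8 had enough counts to test, and 0 rose and 4 fell. These 4 of 8 stand beside the 17.5% of all tested genes that passed. Without the filter on low counts 1 rose and 4 fell of 13 tested, and with the replicate block 1 rose and 4 fell of 8. Il1rn, the interleukin 1 antagonist, went from 169 ± 9.42 to 78.2 ± 4.31 CPM. Il10 fell 2.92-fold from 3.13 ± 0.450 to 1.07 ± 0.170 CPM, and the chemokine Cxcl2 fell 2.59-fold from 5.45 ± 1.58 to 2.11 ± 0.585 CPM. Il1b, at 1.87 ± 0.555 and 0.693 ± 0.196 CPM, fell 2.69-fold. Its call was lost without control 2 (adjusted p = 0.0611), control 3 (0.132), MNP sample 2 (0.115) or MNP sample 3 (0.106) in edgeR. Tnf had 29.8 and 27.3 CPM on average and did not pass (edgeR adjusted p = 0.459). Of 8 host ligands and membrane partners, 1 rose and 2 fell (1 and 3 with library totals alone), again beside 17.5% of all tested genes. Lgals9, for a ligand of dectin-1, fell 1.65-fold, Anxa1, for an annexin on dying cells, fell 1.30-fold, and the tetraspanin Cd63 rose 1.32-fold from 288 ± 14.7 to 381 ± 10.6 CPM.

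For the receptors with the largest change in each direction, the tested genes whose log2 profile over the 6 libraries was most alike were looked up among 9542 genes averaging 5 CPM or more. Profiles were centred on the control mean, so the match mainly picks genes with a similar fold change. Shared regulation was not tested. For Clec4n these were Ampd3, an AMP deaminase, Prkar2b, a regulatory subunit of protein kinase A, and Pdlim4, with root mean square differences of 0.16 on the log2 scale. Ampd3 went from 32.5 ± 3.07 to 91.9 ± 4.03 CPM and Prkar2b from 26.8 ± 2.42 to 87.4 ± 9.03 CPM. For Clec10a they were Gm36161, Gm12250 and Rtp4, an interferon-induced gene, with differences of 0.11, 0.14 and 0.18. Rtp4 went from 67.4 ± 8.57 to 16.4 ± 2.29 CPM.

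Library totals were 20262859 to 23042146 counts, so that 3 counts were worth 0.130 to 0.148 CPM before scaling by normalization factors. Control 1 had the lowest total and a count for the most genes, 24062, against 18240 to 20935 in the other 5 libraries.

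Some markers of other cell types were lower in the samples in which Clec10a, Mgl2, Mrc1 and Clec12a were lower. Over all tested genes 17.5% passed, and 8.35% passed as lower. All 7 macrophage markers were present, with a summed level of 18775 to 19489 CPM in controls and 16658 to 17687 CPM in MNP samples, and 4 of 7 fell (Adgre1, Mertk, Fcgr1 and Lyz2). The Lyz2 call was lost in 8 other settings, among them without any library but control 1 (edgeR adjusted p from 0.0539 to 0.214), and Cd68 passed as higher in 7. The 8 dendritic cell markers, a cell type that also carries Clec10a, Mgl2 and Clec12a, summed to 6.06 to 9.70 CPM in controls and 2.34 to 4.54 CPM in MNP samples. Of these, 6 were tested and 2 fell (Dpp4 and Siglech), and the defining genes Xcr1 and Zbtb46 were near the counting limit, with group means of 0.409 to 0.512 CPM. The 9 neutrophil markers summed to 162 to 244 and 122 to 141 CPM (4 of 8 tested fell), and 5 markers of inflammatory monocytes, which carry Clec12a and Clec4d, summed to 134 to 155 and 95.6 to 106 CPM (3 of 5 fell). Calls were lost without control 2 or MNP sample 3 for Siglech and for Plac8, a monocyte marker, and without any library but control 1 for the neutrophil marker Ngp (edgeR adjusted p from 0.0568 to 0.0910). Of lymphocyte markers and of mast cell and eosinophil markers 1 each was tested and neither passed, no erythroid marker was tested, and 1 of 2 tested fibroblast and endothelial markers fell (Kdr). Sums for lymphocytes (with Cd3e and Ncr1 at 0 counts), erythroid cells, and mast cells and eosinophils were at most 4.70 CPM in any library, and that of fibroblasts and endothelial cells was 13.4 to 22.7 CPM. Clec9a and Cd209a stand both in these lists and among the other lectins. The part of other cells in the changes of Clec10a, Mgl2, Mrc1 and Clec12a was not tested.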

How the data were processed

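The authors deposited raw counts as whole numbers, in 1 table for each library with a row per gene symbol. Per the labels' protocols, total RNA went into CORALL RNA-seq V2 libraries, and the submitters' processing notes list fastp, STAR, Salmon, GATK and build GRCm39. An annotation, a strand setting and the use of molecular identifiers were not given in the sources used here.

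Groups came from the sample titles. The fit covered the whole table with edgeR 4.0.16 (R 4.3.3), TMM factors, the default filter and the quasi-likelihood F test, with Benjamini-Hochberg adjustment over 12893 genes at 0.05. SE was taken as the size of the log2 fold change divided by √F, and 95% intervals use t quantiles. Replicates of a group differed by more than sampling noise (chi-square per degree of freedom 7.07 to 19.6). The fit was tested on simulated counts with known changes. Alternatives were 3 scalings, 2 filters, DESeq2 1.42.0, limma-voom (limma 3.58.1), a replicate block and omission of each library.

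The members and lists were chosen with earlier results of these data known. Named are all 9 receptors, up to 4 called genes per direction and list with the smallest p, 4 signalling genes, and the 3 most similar profiles per extreme receptor. Clec4a1, Clec4a2, Clec4b1, Clec4b2, Clec1a, Clec1b, Clec9a, Olr1, Thbd, Klrk1, Egr3, Il4ra, Stat6 and Tnf were added after their values were seen. A few listed genes count in the totals and are not reported here. Exon lengths and shared words came from GENCODE M21 (GRCm38), an older build than the deposited counts.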

Additional observations from a re-analysis of the deposited data

How the results depend on the processing

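Mrc1, Clec10a, Clec4d and Clec4n kept their direction and passed in all 14 alternatives, as did Mgl2 in the 13 that tested it (the stricter filter dropped it), and Clec4e passed in none. Mgl2 log2 fold changes ran from -1.74 to -1.50. Clec12a ran from -0.39 to -0.25 over the libraries left out. Clec7a was -0.055 with library totals alone. Clec5a was -0.081 with library totals alone and -0.0010 with the stricter filter, and ran from -0.038 to 0.091 over the libraries left out. With 1 library left out, 1471 to 2245 genes passed, the lowest without MNP sample 2, and 5 to 8 signalling genes. With the stricter filter 1 mediator gene passed (Il1rn) of 4 tested. A block for the replicate number called 2686 genes and the same number of receptors, 6. Same-numbered samples correlated at 0.09, 0.03 and -0.02 in their deviations from the group means and not each best with its own number, so the numbers were not taken to pair samples. Library totals alone moved the median log2 fold change by -0.09. The smallest exact permutation p of 3 against 3 samples, 0.1, limits the ratio tests, and 50-base words stand in for a read length not given in the sources used here. Intervals cover the spread between these libraries, and Mgl2 rests on 17 to 71 counts per library.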
